A study of Rattus norvegicus with 10 samples.

Results

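The 8 interferon regulatory factor genes Irf1, Irf2, Irf3, Irf4, Irf5, Irf7, Irf8 and Irf9 were followed across testes of Zucker rats on 10 Affymetrix rat arrays. They were chosen by name among the 18166 genes that had a probe set with a single gene symbol, and each of the 8 had 1 such probe set. All values are log2 expression values after RMA, so a difference of 1 is a 2-fold change, and levels of different genes are not compared because each probe set has its own brightness. Zucker fa/fa rats carry a mutated leptin receptor and become obese. Obese fa/fa rats gave 4 arrays of normally developed and 4 of under-developed testes, and lean rats gave 2 arrays of normally developed testes. All rats were labelled sexually mature and 14 weeks old, with no drug or other treatment named. The labels of the lean rats also carried the fa/fa model, so the lean genotype was not settled. How under-development was scored was not given in the sources used here. The titles called the arrays of each group biological replicates, but did not say outright that the testes of a group came from different animals. A p-value here therefore reflects only the spread between samples.

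Interferon regulatory factors are transcription factors that bind DNA through a shared amino-terminal domain and recognise repeats of GAAA in the promoters of interferons and interferon-responsive genes. Irf3, Irf5 and Irf7 are activated by phosphorylation downstream of sensors of foreign nucleic acid, Irf9 is part of the complex that answers interferon alpha and beta, and Irf1 is a target of interferon gamma that Irf2 can oppose at the same sites. Irf4 and Irf8 are best known from blood cells, where they act in lymphocytes, macrophages and dendritic cells. The testis holds a resident population of macrophages in the tissue around the seminiferous tubules.

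The under-developed group was not uniform. Counted against the average normal obese testis, 2819 genes stood 2-fold or more above it in under-developed replicate 1, 1373 in replicate 2 and 3496 in replicate 3, against 7 in replicate 4. Over genes, replicate 4 correlated with the 6 arrays of normally developed testes at a mean r of 0.995, and replicates 1 to 3 at 0.731 to 0.946. The 12 germ cell markers, which define the tissue, had a mean level of 11.75 to 11.78 in the normal obese arrays, 11.74 in under-developed replicate 4 and 7.72 to 11.04 in replicates 1 to 3. Whether the label of replicate 4 holds was not settled here, and values with all arrays rest on it. Fits of the 8 factors are therefore given with all arrays and without under-developed replicate 4, which was singled out after its values were seen. Counts over gene lists and most values of the scalings are given without it. With all arrays as deposited, limma called 0 genes of every list after adjustment, which was known when this choice was made. Centred on Sertoli cell markers, all arrays gave 1 of the 8 factors higher and 2 lower, where 2.99% of genes were higher and 58.4% lower.

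In under-developed replicates 1 to 3, Irf1, Irf2, Irf7, Irf8 and Irf9 lay above all 6 arrays of normally developed testes and Irf4 lay below them, while Irf3 and Irf5 overlapped with them. Over all genes, 28.7% lay above and 26.7% below in the same way. In the limma fit of all arrays, 0 of 8 genes passed an adjusted p of 0.05 for under-developed against normal obese testes, and the same was true of all 18166 genes (0.0%), with a smallest adjusted p of 0.0702. At an unadjusted p under 0.05, limma gave 5 of the 8 higher and 1 lower, where 24.4% of all genes were higher and 22.3% lower. Without under-developed replicate 4, limma called the same 5 genes higher and Irf4 lower after Benjamini-Hochberg adjustment over all genes, where 29.6% of genes were called higher and 26.4% lower. The rises of Irf7 and Irf8 turned into falls when arrays were centred on Sertoli cell markers, as described with the scalings. Without replicate 4, Irf3 and Irf5 were also called lower with that centring, where 82.5% of all genes were.

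**Figure D1:**
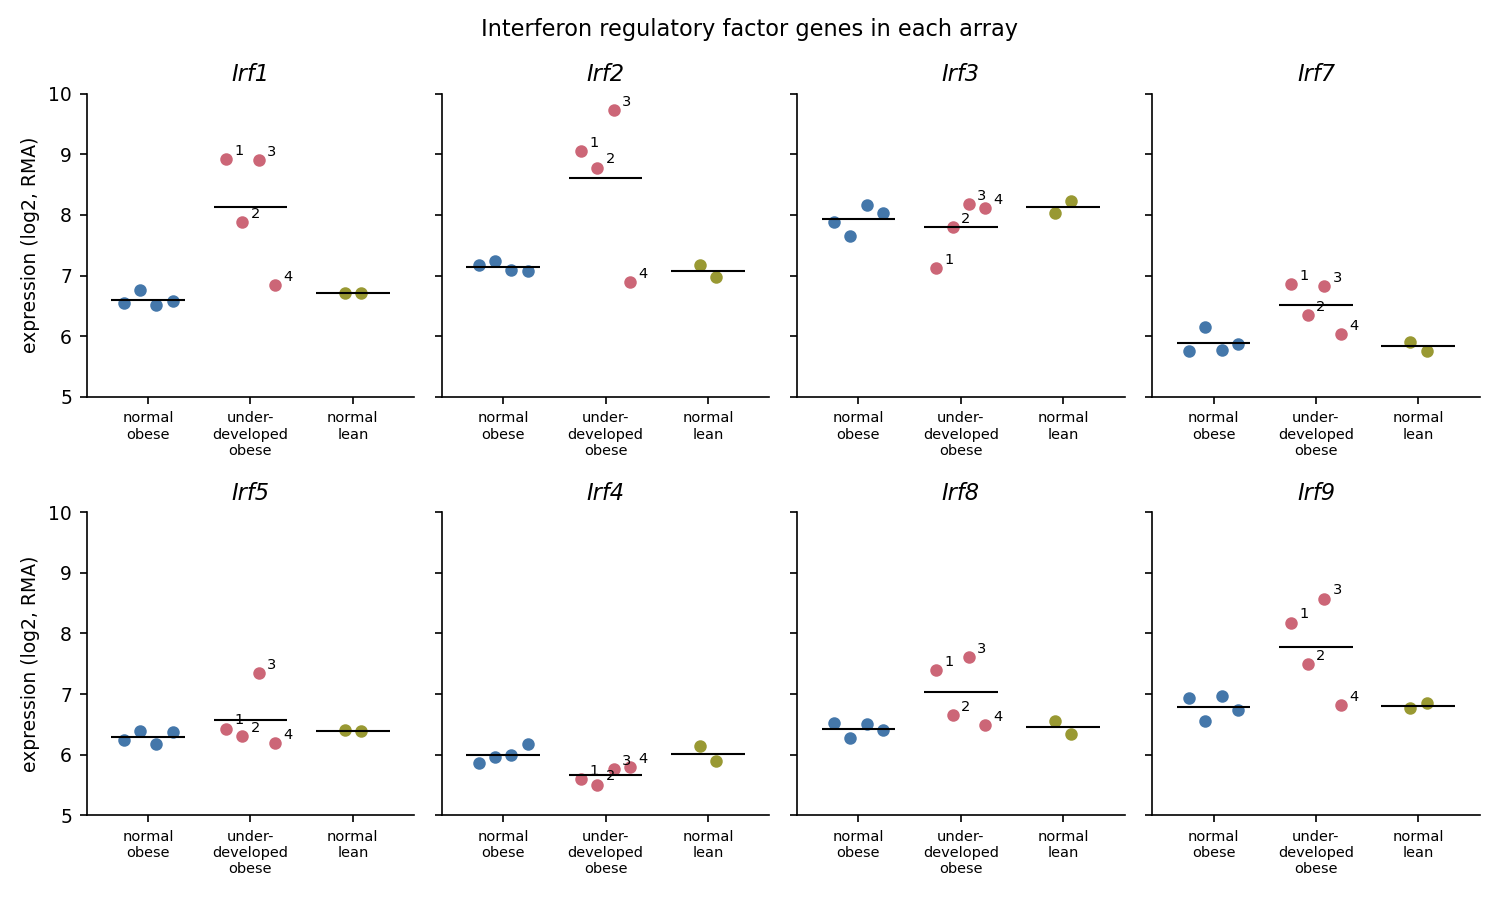
Expression (log2, RMA, vertical axis) of the 8 genes in each array, by group on the horizontal axis. Each point is 1 array, the line is the group mean, and digits give the replicate number of the under-developed testes. Replicates 1 to 3 stood above every normal array for Irf1, Irf2, Irf7, Irf8 and Irf9, and replicate 4 lay near the normal arrays.

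Irf1 activates interferon-responsive genes and genes of antigen presentation. Its level was 6.55, 6.77, 6.52 and 6.57 in normal obese replicates 1 to 4 and 6.72 in both lean arrays. Under-developed replicates 1 to 4 gave 8.92, 7.88, 8.90 and 6.85. All 4 under-developed arrays lay above the 4 normal obese arrays, replicate 4 by a small margin, which held for 7.44% of all genes. Limma estimated a difference of 1.53 ± 0.41 (SE) with all arrays (adjusted p = 0.0702) and 1.96 ± 0.24 without replicate 4 (adjusted p = 0.000249), a 3.90-fold rise. Among all genes, the difference of Irf1 stood at percentile 97.6, 95.5 and 96.5 in under-developed replicates 1 to 3 and at 90.4 in replicate 4.

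The promoter of Irf1 is shown because a STAT element, the motif that STAT proteins bind, lies in it. Each window ran from 250 bases before to 50 bases after a transcript start in RefSeq (GRCr8). The STAT element searched was TTCNNNGAA, which is its own complement, and it is in capitals here. It was found in 8.87% of all 33469 windows of this length, so a match is a description of the letters and not of binding. The window of Irf1 is chr10:38417685-38417984 on the plus strand, with the match from −142 to −134.
Irf1: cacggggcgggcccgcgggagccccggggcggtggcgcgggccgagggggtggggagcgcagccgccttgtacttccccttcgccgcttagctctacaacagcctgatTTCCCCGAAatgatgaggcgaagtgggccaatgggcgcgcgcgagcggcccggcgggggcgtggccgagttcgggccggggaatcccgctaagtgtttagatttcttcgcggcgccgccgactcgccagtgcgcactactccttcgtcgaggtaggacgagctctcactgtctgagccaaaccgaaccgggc

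Irf2 binds many of the same sites as Irf1 and can repress them. Its level was 7.18, 7.24, 7.09 and 7.07 in the normal obese arrays and 7.17 and 6.97 in the lean arrays. For under-developed testes the values were 9.04, 8.78, 9.72 and 6.90. Replicates 1 to 3 stood clear of all normal arrays, and replicate 4 was the lowest of the 10. The fit gave a difference of 1.46 ± 0.50 with all arrays (limma, adjusted p = 0.0703) and 2.04 ± 0.20 without replicate 4 (adjusted p = 0.000113), a 4.10-fold rise and the largest of the 8 genes. Irf1 and Irf2 thus rose together in replicates 1 to 3, with differences from the normal obese mean of 2.32, 1.27 and 2.30 for Irf1 and 1.90, 1.63 and 2.58 for Irf2. Irf2 had the larger difference in replicates 2 and 3 and Irf1 in replicate 1.

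Irf3 is present before infection in most cells and is switched on by phosphorylation. Its level was 7.89, 7.65, 8.16 and 8.03 in the normal obese arrays and 8.03 and 8.22 in the lean arrays. The under-developed arrays, replicates 1 to 4, read 7.12, 7.80, 8.17 and 8.10. Replicate 1 alone lay below the normal arrays, at −0.81 from the normal obese mean, and the other replicates lay within their range. The fitted difference was −0.13 ± 0.23 with all arrays (limma, adjusted p = 0.682) and −0.23 ± 0.23 without replicate 4 (adjusted p = 0.438).

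Irf7 shares the activating kinases of Irf3 and is itself induced by interferon alpha and beta, which amplifies their production. Its level was 5.75, 6.15, 5.78 and 5.87 in the normal obese arrays and 5.91 and 5.76 in the lean arrays. The 4 under-developed arrays stood at 6.85, 6.35, 6.83 and 6.03. Replicates 1 to 3 lay above all normal arrays and replicate 4 within their range. Limma estimated a difference of 0.63 ± 0.20 with all arrays (adjusted p = 0.0702) and 0.79 ± 0.16 without replicate 4 (adjusted p = 0.00273), a 1.73-fold rise. Irf7 stood at percentile 79.7 to 83.9 of all genes in replicates 1 to 3, below Irf1, Irf2 and Irf9.

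Among the 7 members with a RefSeq promoter window, Irf7 was the 1 with an IRF element, the site these factors bind, searched on both strands as GAAA, any 2 bases and GAAA again. The element was found in 3.92% of all windows. The window of Irf7 is chr1:205799974-205800273 on the minus strand, and the capitals mark the element, which reads on the opposite strand from −69 to −60.
Irf7: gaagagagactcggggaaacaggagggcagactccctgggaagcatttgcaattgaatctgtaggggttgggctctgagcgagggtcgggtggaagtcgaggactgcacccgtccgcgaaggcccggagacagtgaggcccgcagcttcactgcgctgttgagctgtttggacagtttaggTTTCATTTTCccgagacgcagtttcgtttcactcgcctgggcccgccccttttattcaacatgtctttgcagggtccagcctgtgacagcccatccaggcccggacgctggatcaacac

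Irf5 acts downstream of Toll-like receptors in macrophages and drives genes of inflammatory cytokines. Its level was 6.25, 6.39, 6.17 and 6.38 in the normal obese arrays and 6.41 and 6.38 in the lean arrays. Under-developed replicates 1 to 4 gave 6.43, 6.31, 7.35 and 6.19. Replicate 3 alone stood clearly above the normal arrays, at 1.05 from the normal obese mean. The fit gave a difference of 0.27 ± 0.23 with all arrays (limma, adjusted p = 0.378) and 0.40 ± 0.23 without replicate 4 (adjusted p = 0.171).

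Irf4 directs plasma cell and T cell differentiation and is not induced by interferons. Its level was 5.86, 5.96, 5.99 and 6.18 in the normal obese arrays and 6.14 and 5.90 in the lean arrays. For under-developed testes the values were 5.60, 5.51, 5.76 and 5.80. All 4 under-developed arrays lay below the 4 normal obese arrays, replicate 4 just so, which held for 10.4% of all genes. The fitted difference was −0.33 ± 0.12 with all arrays (limma, adjusted p = 0.0713) and −0.38 ± 0.12 without replicate 4 (adjusted p = 0.0235). With an offset of 50 added before log2 and without replicate 4, the fall was smaller, at −0.20 ± 0.06 (limma, adjusted p = 0.0269). With the replicate number as a block and without replicate 4, Irf4 no longer passed (limma, −0.32, adjusted p = 0.0981).

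Irf8 directs the development of monocytes and dendritic cells and partners with the factor Spi1. Its level was 6.52, 6.27, 6.50 and 6.41 in the normal obese arrays and 6.56 and 6.34 in the lean arrays. The under-developed arrays, replicates 1 to 4, read 7.39, 6.66, 7.61 and 6.48. Replicates 1 and 3 were about 1 log2 above the normal obese mean, replicate 2 lay only just above the highest normal array, and replicate 4 lay within the normal range. Limma estimated a difference of 0.61 ± 0.24 with all arrays (adjusted p = 0.0862) and 0.80 ± 0.21 without replicate 4 (adjusted p = 0.0109).

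The promoter window of Irf8 held the STAT element at 2 places, from −180 to −172 and from −161 to −153. It is shown with both in capitals and lies at chr19:65699034-65699333 on the plus strand.
Irf8: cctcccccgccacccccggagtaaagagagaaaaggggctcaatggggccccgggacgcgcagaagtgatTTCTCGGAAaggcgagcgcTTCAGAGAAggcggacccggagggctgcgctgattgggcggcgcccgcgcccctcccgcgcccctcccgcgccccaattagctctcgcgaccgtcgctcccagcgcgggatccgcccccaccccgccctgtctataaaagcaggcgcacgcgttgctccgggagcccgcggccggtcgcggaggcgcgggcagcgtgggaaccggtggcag

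Irf9 is the subunit that gives the interferon alpha and beta complex its binding to DNA. Its level was 6.93, 6.55, 6.96 and 6.73 in the normal obese arrays and 6.76 and 6.86 in the lean arrays. The 4 under-developed arrays stood at 8.18, 7.49, 8.57 and 6.82. Replicates 1 to 3 lay above every normal array and replicate 4 among them. The fit gave a difference of 0.97 ± 0.33 with all arrays (limma, adjusted p = 0.0703) and 1.29 ± 0.23 without replicate 4 (adjusted p = 0.00165), a 2.44-fold rise.

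The window of Irf9 is printed because it held 1 STAT element, from −99 to −91, in capitals. It lies at chr15:33065586-33065885 on the plus strand. The windows of Irf3, Irf4 and Irf5 held neither motif as searched, and Irf2 was not matched to a window.
Irf9: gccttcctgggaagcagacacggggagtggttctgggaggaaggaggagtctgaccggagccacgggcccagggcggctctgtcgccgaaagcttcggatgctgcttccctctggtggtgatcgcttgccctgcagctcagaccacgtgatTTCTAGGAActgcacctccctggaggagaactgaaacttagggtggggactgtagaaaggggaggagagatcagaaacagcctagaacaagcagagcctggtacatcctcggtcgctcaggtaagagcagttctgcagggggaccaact

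**Figure D2:**
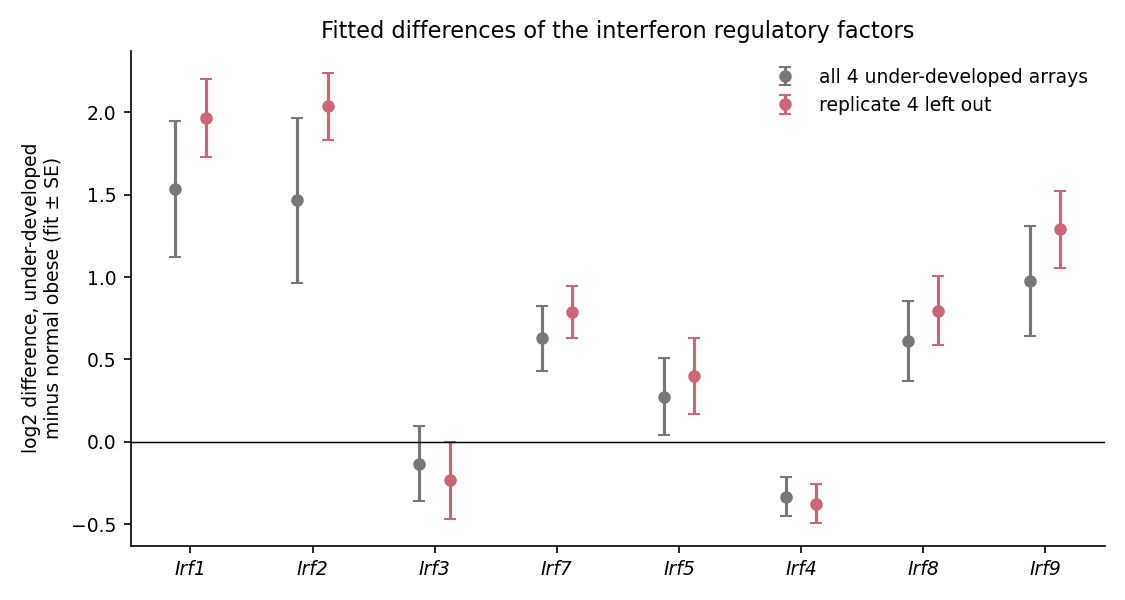
Fitted log2 difference of under-developed from normal obese testes (vertical axis, point and bar are the limma fit ± SE) for each gene, with all 4 under-developed arrays in grey and without replicate 4 in red. The differences of Irf1, Irf2, Irf7, Irf8 and Irf9 were larger and their SEs smaller without replicate 4.

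The genes that interferons induce were read from lists of known targets, given as counts and medians beside those of all genes. In under-developed replicates 1 to 4 the median difference of all genes was 0.03, −0.02, 0.17 and 0.00, and that of the 8 interferon regulatory factors was 0.97, 0.35, 1.12 and 0.05. Of 33 measured targets of interferon alpha and beta, 24 rose and 3 fell without replicate 4 (limma, adjusted p under 0.05), or 72.7% and 9.09%. Over all genes in that fit 29.6% rose and 26.4% fell, and this background holds for each list count that follows. Their median difference was 1.24, 0.68, 1.49 and 0.02 in under-developed replicates 1 to 4. Ifitm2, which restricts virus entry, differed by 3.62, 3.04, 4.23 and −0.16, and Parp9 by 3.39, 2.64, 3.73 and 0.02. Ifitm1 and Ifitm3 differed by 3.62, 2.95, 3.99 and −0.91 and by 3.32, 2.15, 3.44 and 0.13. The Ifitm genes are close relatives of each other, and how far their probe sets share signal was not given. Isg15, a ubiquitin-like protein, differed by 1.01, 0.46, 0.92 and 0.17. The 3 that fell were Dhx58, a modulator of RNA sensing (−1.20, −0.87, −1.90 and −0.15), Isg20, an exonuclease (−1.22, −0.33, −1.11 and −0.04), and Cmpk2, a nucleotide kinase (−0.52, −0.76, −0.71 and −0.04).

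Of 25 measured interferon gamma targets, 20 rose (80.0%, against 29.6% of all genes) and 0 fell without replicate 4 (limma, adjusted p under 0.05), with medians of 1.85, 1.16, 1.83 and −0.21 in under-developed replicates 1 to 4. Several belong to antigen presentation, which Irf1 is known to control. The immunoproteasome subunit Psmb8 differed by 2.84, 2.03, 3.48 and −0.42, and the peptide transporter Tap1 by 1.54, 1.21, 1.83 and 0.03. The guanylate-binding proteins Gbp6 and Gbp5, members of a family of close paralogs, differed by 3.61, 3.35, 3.64 and 0.04 and by 3.05, 2.46, 2.74 and −0.31. The transactivators of antigen presentation did not pass, with differences of 0.15, −0.14, 0.31 and 0.30 for Ciita and 0.28, −0.10, 0.44 and −0.21 for Nlrc5. Ido1, Socs1 and Cd274 did not pass either.

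An IRF element in the promoter window was common among these targets. The lists hold known interferon-responsive genes, in whose promoters such repeats are recognised, so this share describes the lists and not these testes. It was found in 15 of 24 interferon alpha and beta targets with a window (62.5%) and in 14 of 22 interferon gamma targets (63.6%), against 498 of 14564 measured genes (3.42%). Among the interferon alpha and beta targets, the median difference in under-developed replicates 1 to 4 was 2.31, 1.71, 2.29 and 0.03 with the element and 0.99, 0.68, 1.43 and −0.04 without it. For interferon gamma targets the order was the opposite in replicates 1 to 3, with 1.86, 1.22, 1.86 and −0.25 with the element and 2.39, 1.36, 2.11 and −0.05 without it. Over all measured genes the medians were 0.12, 0.08, 0.26 and 0.00 with the element and 0.02, −0.03, 0.15 and −0.01 without it. Strips of 30 bases show the element (capitals) in the 3 genes of each list with the largest differences among those that held it, chosen after their values were seen. The element reads forward in Ifitm2, Ifitm3 and B2m, the light chain of class I antigen presentation, and on the opposite strand in Ifi44, Psmb8 and Gbp5. In the order printed, the strips lie at chr1:205482362-205482391 (minus strand), chr1:205541783-205541812 (minus), chr2:243303847-243303876 (minus), chr20:4657016-4657045 (minus), chr2:233910933-233910962 (plus) and chr3:129549170-129549199 (plus).
Ifitm2: ccaccaacagGAAAAGGAAActgctagaga
Ifitm3: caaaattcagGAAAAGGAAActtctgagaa
Ifi44: gcacactgagTTTCAGTTTCatttcccagg
Psmb8: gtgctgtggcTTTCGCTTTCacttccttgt
Gbp5: acttgtgtagTTTCAATTTCagtttagagg
B2m: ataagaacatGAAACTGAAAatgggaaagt

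Upstream of the factors, 14 of 19 measured sensors, adaptors and kinases rose (73.7%, against 29.6% of all genes) and 1 fell without replicate 4 (limma, adjusted p under 0.05), with medians of 0.76, 0.27, 0.97 and −0.06 in under-developed replicates 1 to 4. Ifih1, a sensor of double-stranded RNA, differed by 2.48, 1.74, 2.29 and −0.19. Tlr3, the receptor of double-stranded RNA in endosomes, differed by 2.47, 1.30, 2.38 and −0.19, and Tlr7, the receptor of single-stranded RNA, by 2.06, 0.53, 1.83 and 0.00. The kinase Tbk1, which phosphorylates Irf3 and Irf7, differed by 1.07, 0.48, 1.38 and −0.16, and the adaptor Mavs by 1.04, 0.27, 1.60 and −0.08. Azi2, an adaptor of Tbk1, was the 1 that fell, with −0.77, −0.38, −0.97 and −0.13.

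Among 21 measured interferons, receptors and JAK-STAT genes, 11 rose (52.4%, against 29.6% of all genes) and 2 fell without replicate 4 (limma, adjusted p under 0.05). The receptor subunits Ifngr1 and Ifngr2 for interferon gamma differed by 2.47, 1.53, 2.48 and −0.10 and by 2.37, 1.93, 2.31 and −0.15. Stat2, which binds Irf9, differed by 1.69, 1.08, 2.26 and −0.03. None of the 7 measured interferon genes was called higher. Ifng, the gene of interferon gamma, fell by 0.63 ± 0.17 without replicate 4 (limma, adjusted p = 0.0117), with differences of −0.58, −0.60, −0.70 and 0.03. Ifnb1 differed by −0.26, −0.08, −0.02 and 0.20, and it did not pass, nor did Ifna1, Ifna4, Ifnk and Ifnl3. Ifna2 fell just short of the threshold, at 0.35 ± 0.13 without replicate 4 (limma, adjusted p = 0.0506). It differed by 0.28, 0.39, 0.38 and 0.33 in under-developed replicates 1 to 4. Ifnar1, a receptor subunit for interferon alpha and beta, fell by 0.50 ± 0.10 (limma, adjusted p = 0.00225), and Ifnar2 was not analysed here.

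Of 14 measured binding partners and related cofactors, 7 rose (50%, against 29.6% of all genes) and 1 fell without replicate 4 (limma, adjusted p under 0.05). Spi1, the partner of Irf4 and Irf8 in myeloid and B cells, differed by 0.75, 1.10, 1.04 and 0.00. Irf2bpl, named for its likeness to a cofactor of Irf2, differed by 1.85, 1.42, 2.26 and 0.09. Trim21, a ubiquitin ligase that acts on several of these factors, differed by 2.07, 1.50, 2.77 and −0.05. The B cell partner Spib and the partners Batf and Batf3, which work with Irf4 and Irf8 in lymphocytes and dendritic cells, did not pass.

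**Figure D3:**
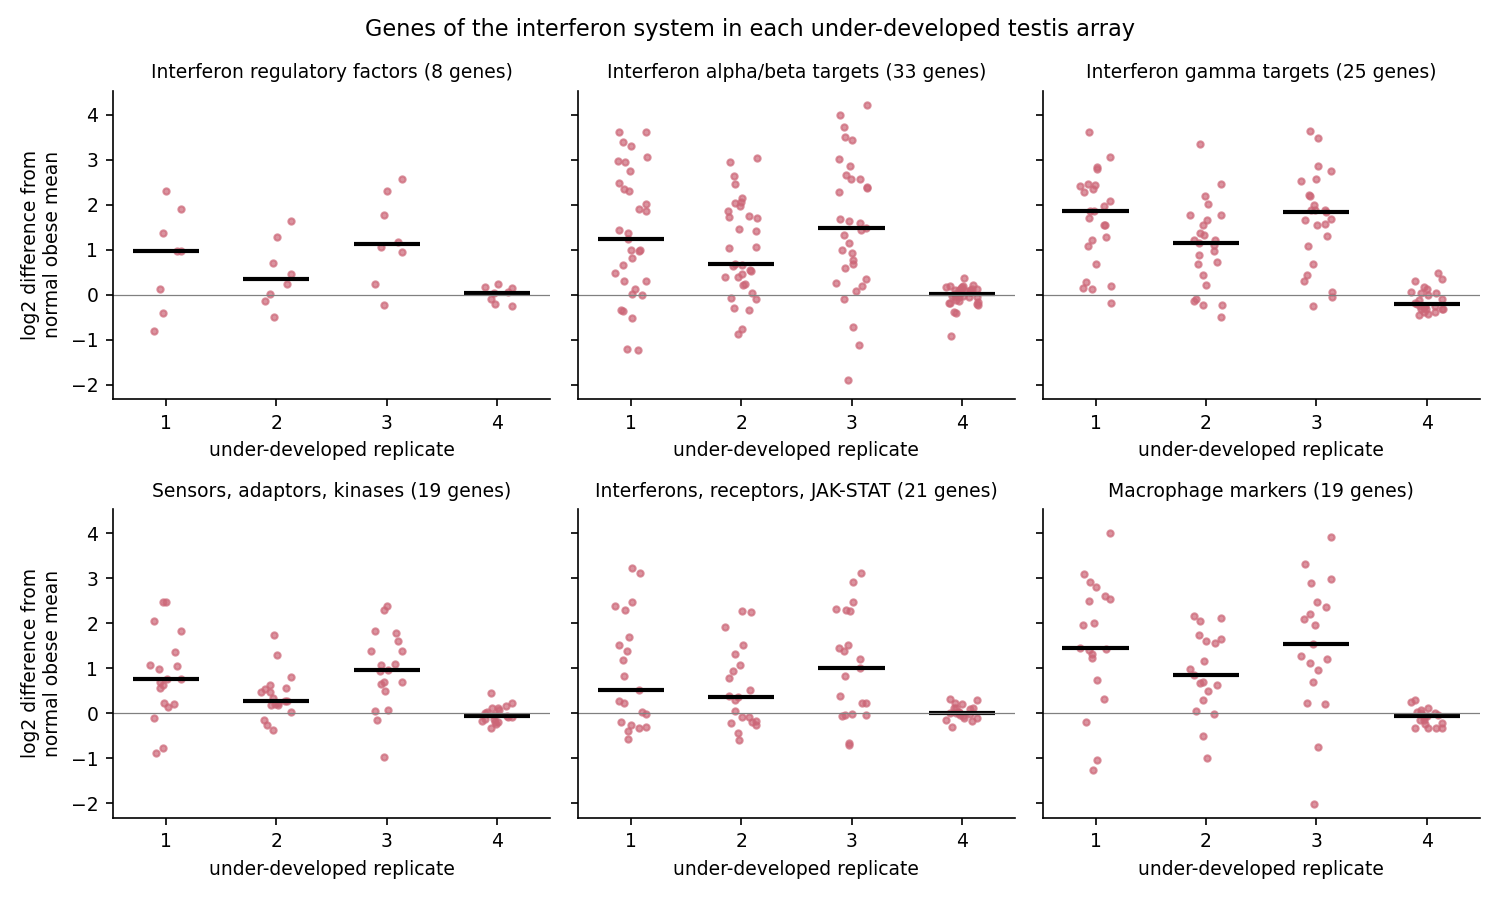
Log2 difference from the normal obese mean (vertical axis) in under-developed replicates 1 to 4 (horizontal axis), with 1 point per gene and a line at the list's median, for the 8 factors and 5 related lists. The medians of the interferon gamma targets were 1.85, 1.16 and 1.83 in replicates 1 to 3 and −0.21 in replicate 4.

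Markers of several other cell types moved in the same arrays, to be read against 29.6% of all genes higher and 26.4% lower in the same fit. Of 19 measured macrophage and monocyte markers, 15 rose and 2 fell without replicate 4 (limma, adjusted p under 0.05), and their mean level was 6.77 to 7.10 in the normal obese arrays, 7.84 to 8.50 in under-developed replicates 1 to 3, 6.85 in replicate 4 and 6.73 to 6.91 in the lean arrays. Csf1r, the receptor that sustains macrophages, differed by 2.82, 1.61, 2.47 and −0.06, while Aif1 and Cx3cr1 fell. All 12 germ cell markers fell, and 6 of 9 Sertoli cell, 5 of 7 Leydig cell and 6 of 6 endothelial markers rose, while the Sertoli marker Amh fell. Of 3 red blood cell markers 2 rose, Hba-a1 with 1.61, 2.01, 0.72 and −0.09 and Hbb-b1 with 1.43, 1.97, 1.00 and −0.04 in under-developed replicates 1 to 4. Of 10 B and plasma cell markers 2 rose and 1 fell, with a mean level of 6.08 to 6.16 in the normal obese arrays and 6.01 to 6.25 in replicates 1 to 3. Of 14 T and NK cell markers 5 rose (35.7%, near the share of all genes) and 1 fell, with 5.32 to 5.36 against 5.52 to 5.72. Of 9 dendritic cell markers 1 rose and 1 fell. Of 9 granulocyte markers 0 rose and 1 fell, and of 8 markers of epididymis and duct epithelium 1 rose and 0 fell. The part of these cell types in the values of the factors was not tested, and log2 array values have no true zero that would show a marker as absent. In whole testes, fewer cells of a type and less RNA per cell cannot be told apart.

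The values also depended on what the arrays were scaled to. Without replicate 4, the median difference of all genes was 0.07 as deposited, −0.67 when arrays were centred on ribosomal protein genes and −1.06 when centred on Sertoli cell markers. Irf1 differed by 1.23 and 0.84 and Irf2 by 1.30 and 0.91 under these centrings, and both were called higher under each of the 5 scalings. Irf9 differed by 0.56 when centred on ribosomal protein genes (limma, adjusted p = 0.0194) and by 0.16 when centred on Sertoli markers, where it did not pass. Irf7 and Irf8 both differed by 0.06 on ribosomal protein genes and did not pass, and were called lower on Sertoli markers, by −0.34 (limma, adjusted p = 0.0217) and −0.33 (adjusted p = 0.0401). Irf4 was called lower under each of the 5 scalings. Irf3 was called lower on ribosomal protein genes, by −0.96 (limma, adjusted p = 0.00769), and on Sertoli markers, by −1.36 (adjusted p = 0.000946). Irf5 was called lower on Sertoli markers, by −0.72 (limma, adjusted p = 0.00308), and did not pass on ribosomal protein genes. Relative to the median of all genes, which centring leaves unchanged, Irf2 stood at 1.97, Irf1 at 1.90, Irf9 at 1.22, Irf8 at 0.73, Irf7 at 0.72, Irf5 at 0.33, Irf3 at −0.30 and Irf4 at −0.44. Of all genes, 7.39% were called higher and 82.5% lower when arrays were centred on Sertoli markers, and 12.3% and 70.1% on ribosomal protein genes. With Sertoli centring, 15 of 33 interferon alpha and beta targets rose and 13 fell, and 16 of 25 interferon gamma targets rose and 5 fell.

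**Figure D4:**
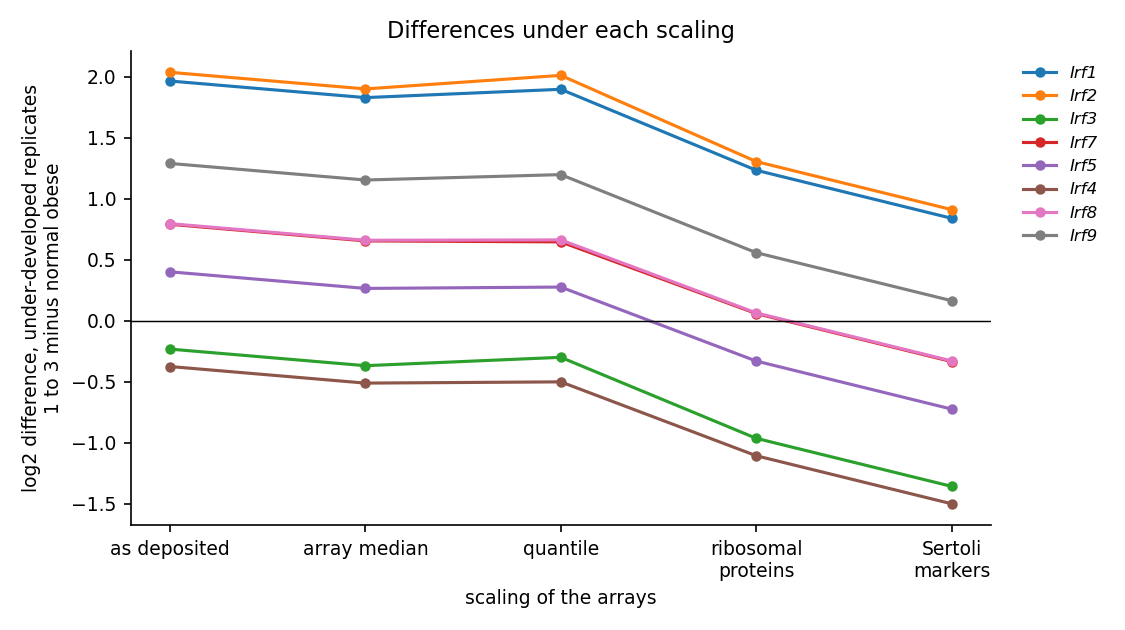
Log2 difference of under-developed replicates 1 to 3 from normal obese testes (vertical axis) for each gene as deposited and under 4 other scalings of the arrays (horizontal axis); the lines of Irf7 and Irf8 overlie each other. Irf1 and Irf2 stayed above 0 under each scaling drawn, and Irf7 and Irf8 turned to −0.34 and −0.33 when arrays were centred on Sertoli cell markers.

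In normally developed testes, obese and lean rats were set against each other. The 8 genes differed by −0.20 (Irf3) to 0.08 (Irf2) between normal obese and lean arrays, with Irf1 at −0.12, Irf5 at −0.10 and Irf7 at 0.05, and Irf4, Irf8 and Irf9 each at −0.02. After adjustment limma called none of the 8 (0 of 8) and none of all genes (0.0%). At an unadjusted p under 0.05 it also gave 0 of 8, where 80 of 18166 genes passed (0.44%). The sign of most of these differences turned under some scaling or with 1 array left out. The SEs ran from 0.14 to 0.61 with all arrays and from 0.13 to 0.27 without under-developed replicate 4, which shares the estimate of the spread. For Irf2 the SE went from 0.61 to 0.23. In both fits each difference was smaller than its SE.

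Set against the lean arrays, under-developed testes gave differences of 1.42 ± 0.50 for Irf1, 1.54 ± 0.61 for Irf2 and 0.96 ± 0.41 for Irf9 with all arrays (limma, adjusted p = 0.154 for each). No member passed after adjustment with all arrays, as no gene did (0.0%), and 4 were higher and 1 lower at an unadjusted p under 0.05, where 17.5% of genes were higher and 14.3% lower. Without replicate 4, Irf1, Irf2, Irf7, Irf8 and Irf9 were called higher and Irf4 lower (limma, adjusted p under 0.05). In that fit 25.6% of genes were called higher and 23.2% lower. Irf1 then differed by 1.85 ± 0.29, Irf2 by 2.11 ± 0.24, Irf9 by 1.27 ± 0.28, Irf7 by 0.84 ± 0.19, Irf8 by 0.77 ± 0.25 and Irf4 by −0.40 ± 0.14. This comparison shares its under-developed arrays with the one against normal obese testes and is no separate evidence.

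The genes whose values followed each factor most closely over the 10 arrays were listed as a description, since the 3 under-developed arrays that stood apart set much of each r. Symbols of unnamed loci, olfactory receptors and microRNAs were left out before the closest were taken. For Irf1 they were Uso1 (r = 0.999), Pak2 (r = 0.997) and Sncb (r = 0.997), and for Irf2 Ptprz1 (r = 0.998), Anxa7 (r = 0.997) and Fxyd1 (r = 0.997). Irf9 was followed by Plagl1 (r = 0.994), RT1-CE5 and Tada1 (both r = 0.993), Irf8 by Pds5a (r = 0.995), Zfp703 (r = 0.992) and Proser1 (r = 0.989), and Irf7 by Ccl7 (r = 0.990), Shpk (r = 0.988) and Mybpc3 (r = 0.987). The closest genes were less close for Irf3 (Stx16, r = 0.969), Irf5 (Tm9sf4, r = 0.974) and Irf4 (Acp6, r = 0.925), the 3 genes that did not rise. Over the 7 arrays left without under-developed replicates 1 to 3, r was 0.973 for Irf1 with Uso1, 0.899 for Irf2 with Ptprz1, 0.918 for Irf3 with Stx16 and 0.918 for Irf7 with Ccl7. It was 0.949 for Irf8 with Pds5a, 0.756 for Irf4 with Acp6, 0.749 for Irf9 with Plagl1 and 0.695 for Irf5 with Tm9sf4. Over all 24 pairs it ran from 0.533 (Irf5 with Helz2) to 0.973.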

How the data were processed

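Total RNA was extracted with Trizol and labelled with the Affymetrix WT PLUS kit, per the labels' protocols. The authors deposited log2 levels of probe sets after RMA, as named in the submitters' processing notes. No RMA version or setting is given in the sources used here, and scanner files were not used here. The table held 36685 probe sets: 18511 with 1 gene symbol, 575 with several and 17599 unnamed. Symbols were updated through RefSeq, where 18394 matched. A gene with several probe sets (291 genes) was read from its brightest by mean, giving 18166 genes.

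Sample titles gave the groups. limma 3.58.1 (R 4.3.3) fitted a mean per group to all 10 arrays at once, with lmFit and eBayes, and p-values were adjusted by Benjamini-Hochberg over all genes (threshold 0.05). The limma fit was checked on simulated data in which every array had the spread of the normal obese arrays. That check did not cover a group with an array that stands apart, such as under-developed replicate 4. Single arrays were compared with the mean of the 4 normal obese arrays. The members and gene lists were chosen with earlier results of these data known. By rule the text could name all 8 members, up to 4 genes of each list with the largest absolute differences and the 3 nearest genes per member; other genes were chosen after their values were seen. Some genes stand in more than 1 list. Motifs were searched in RefSeq windows (GRCr8), which 7 of 8 members had. Alternatives were 5 scalings (one an offset of 50 before log2), dim-gene filters (25th percentile or median), other uses of probe sets, trend and robust moderation, array weights, the compared groups alone, a replicate block and each array left out. Combinations with under-developed replicate 4 left out were added after seeing the data. Protein sequences were not used here. Plots used Python 3.11.15 and matplotlib 3.10.9.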

Additional observations from a re-analysis of the deposited data

How the results depend on the processing

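Over the 8 genes in the 3 comparisons, 506 alternative values kept their direction and side of the threshold. A further 82 kept their direction and passed where the main value did not. Another 40 changed sign. Some of these also passed, such as Irf5, Irf7 and Irf8 against normal obese testes with Sertoli centring and without replicate 4. No main value passed, so none could be lost. For under-developed against normal obese testes, where limma called 0 of the 8 genes, array weights called 5, all higher (28.4% of all genes higher, 25.9% lower), centring on Sertoli markers 3, with 1 higher and 2 lower (2.99% and 58.4%), and leaving out 1 array 0, except 6 without under-developed replicate 4. Without under-developed replicate 4, 6 genes were called with median centring, 6 with quantile normalization and 6 with the offset, each 5 higher and 1 lower, where 24.5% to 28.9% of all genes were higher and 26.5% to 31.8% lower. Ribosomal centring called 5, with 3 higher and 2 lower (12.3% and 70.1% of all genes), and Sertoli centring 7, with 2 higher and 5 lower (7.39% and 82.5%). For under-developed against lean testes (main count 0), array weights called 6, with 5 higher and 1 lower (27.3% and 25.6% of all genes), and leaving out 1 array 0, except 6 without under-developed replicate 4. Without replicate 4, median centring and the offset called 6 and quantile normalization 5, each with 1 lower (23.5% to 25.2% of all genes higher, 23.5% to 26.1% lower). Ribosomal centring called 4, with 2 higher and 2 lower (10.3% and 71.7%), and Sertoli centring 7, with 2 higher and 5 lower (6.75% and 82.0%). For under-developed against normal obese testes, the replicate block called 0 of the 8 genes with all arrays. Without replicate 4 it called 5, all higher (24.9% of all genes higher, 22.9% lower). The labels did not say whether replicate numbers pair samples. Same-numbered under-developed and normal obese arrays deviated from their group means together at r of 0.077, 0.0069, 0.0237 and 0.260 for replicates 1 to 4. These r cannot settle pairing, because deviations in the under-developed group mostly hold the gap between replicate 4 and the rest.

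Signs turned as follows, and the cause was not tested. Under-developed against normal obese: leaving out 1 array, Irf3 ranged from −0.256 to 0.094, positive without under-developed replicate 1. With Sertoli centring Irf7 was −0.216, and −0.335 without replicate 4 too, Irf8 −0.232 and −0.330, and Irf5 −0.569 and −0.725. With ribosomal centring Irf5 was −0.241 and −0.331. Against lean, Irf7 was −0.220 and −0.340 and Irf8 −0.313 and −0.411 with Sertoli centring, Irf8 −0.0305 and −0.0619 with ribosomal centring, and Irf5 −0.445 and −0.535 (ribosomal) and −0.728 and −0.884 (Sertoli), and −0.0871 to 0.299 with 1 array left out, negative without under-developed replicate 3. In single arrays with Sertoli centring, Irf7 was −0.229, −0.358 and −0.419 in replicates 1 to 3, Irf8 −0.225 and −0.179 in replicates 1 and 3, Irf5 −0.308 in replicate 3 and Irf9 −0.116 in replicate 2. With ribosomal centring Irf7 was −0.0464 in replicate 2. Obese against lean: Irf1 was 0.0417 with the replicate block. Irf2 was −0.0252 and Irf7 −0.0491 with ribosomal centring, and Irf7 −0.0043 with Sertoli centring. With median centring and quantile normalization, Irf4 was 0.0342 and 0.0393, Irf8 0.0322 and 0.0216, and Irf9 0.0385 and 0.0161. Leaving out 1 array, Irf2 ranged from −0.024 to 0.178, Irf7 from −0.0355 to 0.126, Irf4 from −0.143 to 0.10, Irf8 from −0.136 to 0.0891 and Irf9 from −0.0738 to 0.0634. The number of arrays limits precision.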
